A study of Rattus norvegicus with 2 samples.

Results

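Solute carriers were followed in 2 RNA sequencing libraries of mesenchymal stem cells (bmMSCs), stromal cells that grow attached to plastic, from the bone marrow of Sprague-Dawley rats at passage 3 to 5. The untransfected library served as the negative control, and the other was prepared 10 days after transfection with Pdx1 and Ngn3, transcription factors of pancreatic and endocrine development. Members were the rows of the deposited gene table with a rat gene identifier and a symbol of the form Slc plus a digit. This found 32 of 2325 rows, and 30 remained after Slc2a1 and Slc16a3 were left out by the rule. Every listed gene differs by 2-fold or more between the libraries, so that a member's presence here is itself a selection for change, and Slc genes outside the table were not analysed here. The substrate came from the deposited gene name for 21 members and from the Slc family for 9. By this grouping 9 members carry amino acids or peptides, 8 organic ions and metabolites, 6 inorganic ions, 4 belong to the mitochondrial carrier family (1 of them, Slc25a17, peroxisomal), 2 carry sugars and 1 carries nucleotide sugars, and no listed member belonged to the nucleoside class.

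Solute carriers, the Slc genes, encode membrane proteins that move amino acids, sugars, ions, vitamins and other small molecules across the plasma membrane or into mitochondria, vesicles and the Golgi. Many work by exchange or by coupling uphill uptake to the sodium gradient that the sodium pump maintains, and their families are numbered by sequence similarity, so that 1 family can hold carriers of different substrates. In bone marrow stromal cells they supply amino acids and glucose for growth and matrix secretion, and in endocrine cells they also load metal ions and transmitters into secretory vesicles.

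Depth was 7800831 reads in the untransfected and 7415094 in the transfected library, and Pdx1, the introduced gene, had 0 and 565 reads. Each condition had 1 library, so the spread among cultures or rats is unknown and no p-value is given. Intervals are exact 95% intervals for counting error alone. The control was untransfected, so the transfection procedure and the introduced genes cannot be told apart. In bulk RNA, fewer cells of a type and less RNA per cell cannot be told apart either. Of 14 fixed mesenchymal markers 8 were listed, 5 higher and 3 lower, and their summed level was 2321 RPKM (reads scaled by gene length and library total) without and 1142 RPKM with transfection. Thy1 (1101 and 322 RPKM) and Itgb1 (1057 and 519 RPKM) made up most of this sum and were lower, as was Itga5. Kitlg, Vcam1, Nes, Cxcl12 and Pdgfra were from 2.58-fold to 11.2-fold higher. Of 15 blood cell markers 3 were listed, with Cd74 and RT1-Db1 lower and Cd68 higher (5 and 26 reads), and a summed level of 12.4 RPKM and then 3.45 RPKM. Endothelial Egfl7, the one listed of 7 endothelial markers, stood at 5.30 and 1.57 RPKM, none of 12 islet and duct markers was listed, and the part of any such cells in the results below was not tested.

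Among the 30 members, 21 were higher and 9 lower in transfected cells. Counting required a difference of 2-fold or more with an interval that excluded no change, and by this rule 63.5% of all listed genes were higher and 36.5% lower, so the split of the members was close to that of the table. The median log2 ratio was 1.38 over the members and 1.24 over all listed genes. At least 3-fold was reached by 14 members, against 55.96% of all listed genes, and for 20 members the interval bound nearest to no change was itself at least 2-fold, against 65.5%. The calls of higher members depended on the scaling of the libraries. TMM scaling moved every log2 ratio by -0.78, which left all 21 above 0 and 10 members called higher, against 31.6% of all listed genes. Median-of-ratios scaling moved it by -1.20, which left 19 above 0 and 4 called higher, against 22.02% of all listed genes. The higher genes were then 52.6% of the members called under TMM, against 46.4% in the table, and 30.8% under median-of-ratios, against 37.6%. Both shifts move lower genes further down and could not remove a lower call, so 9 members stayed lower. Both scalings were computed on the listed genes alone, all selected for change and most of them higher. By construction this moves the table toward 0, with a median log2 ratio over all listed genes of 0.46 under TMM and 0.038 under median-of-ratios. Calls lost and signs turned under them, here and below, show the size of this shift and cannot tell which scaling is right. With the sums of listed reads as library sizes, a shift of 0.10, 21 were higher and 6 lower, against 63.5% and 31.8% of all listed genes, and Slc7a1, Slc27a4 and Slc2a3 lost their calls, with log2 ratios from -0.93 to -0.997. Ratios are therefore also given below between members, where the scaling cancels.

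**Figure D1:**
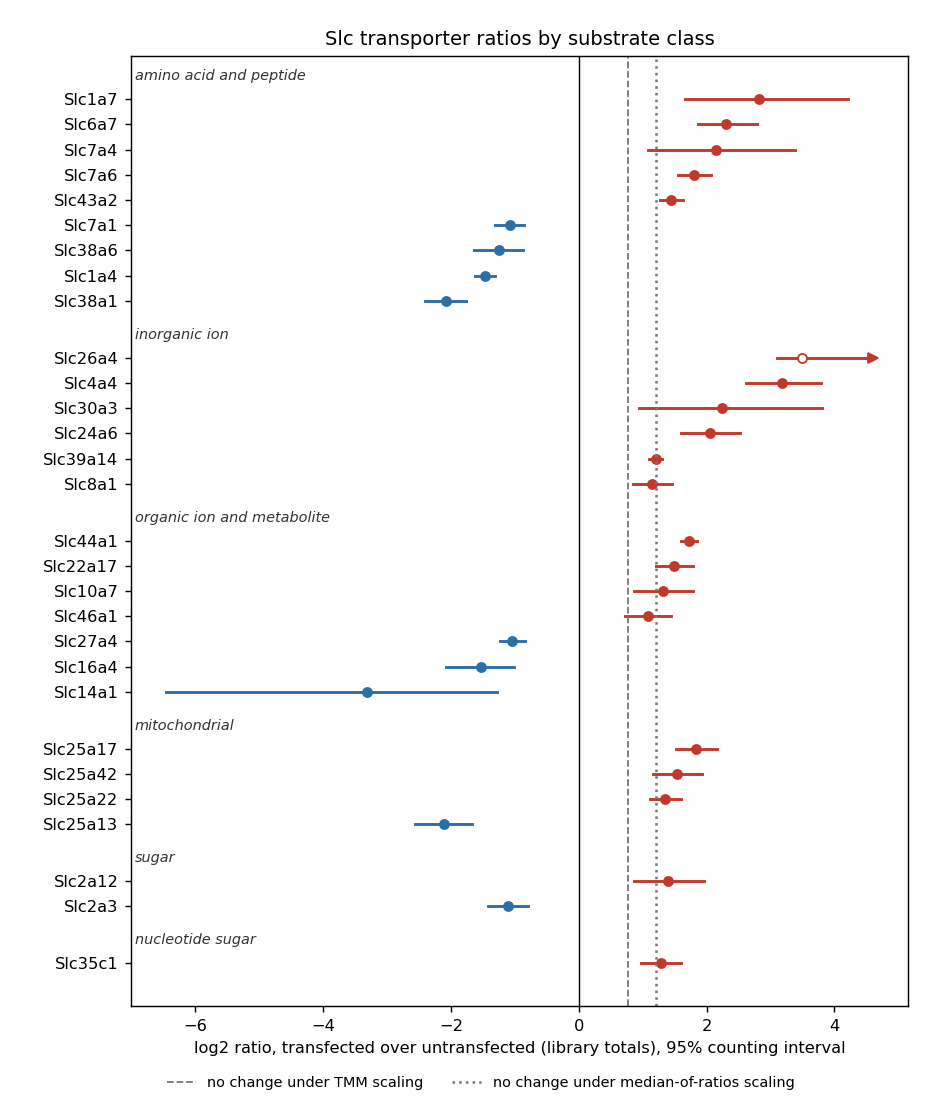
Log2 ratio of scaled reads, transfected over untransfected, for 29 of the 30 solute carriers by substrate class, with exact 95% counting intervals (horizontal lines), higher members in red and lower members in blue. The open point of Slc26a4 is the ratio with 0 reads set to the 3-read floor, and its line starts at the exact lower limit. The dashed and dotted lines mark where no change lies under TMM (0.78) and median-of-ratios (1.20) scaling, and all 6 inorganic ion carriers lie to the right of 0.

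Amino acid carriers divided into 4 lower and 5 higher members, or 55.6% higher beside 63.5% of all listed genes. Under TMM scaling 4 of the higher ones kept their call and under median-of-ratios scaling 2. Of all listed genes 31.6% and 22.02% were then called higher. In untransfected cells the lower group summed to 92.0 RPKM and the higher group to 19.2 RPKM, and in transfected cells the sums were 31.5 and 64.3 RPKM. The split is by the change itself, and all listed genes share it, with untransfected medians of 15.4 RPKM for lower and 3.70 RPKM for higher genes. Slc1a4, the exchanger ASCT1 of alanine, serine and cysteine, had the highest level of any member in untransfected cells, with 1342 reads (43.4 RPKM), and 460 reads (15.7 RPKM) after transfection. It was 2.77-fold lower (interval 2.49 to 3.09). Slc38a1, the sodium-coupled glutamine carrier SNAT1, had 455 and 102 reads, or 27.5 and 6.49 RPKM, and was 4.24-fold lower (3.41 to 5.31), the lowest ratio in this class. Slc38a6, a relative of SNAT1, had 203 and 81 reads and was 2.38-fold lower (1.83 to 3.12). Slc7a1, the arginine and lysine importer CAT1, had 499 and 224 reads, or 9.89 and 4.67 RPKM, and was 2.12-fold lower (1.81 to 2.49). All 4 lower members take up neutral or cationic amino acids at the plasma membrane or belong to families that do. This does not set them apart, since the higher members described below also carry such amino acids or belong to such families.

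The upstream sequences of these 4 carriers are shown because a published response element of amino acid shortage, the CARE sequence bound by ATF4, was looked for in them; the motif was chosen with the direction of the members known. Sequences are the 250 bases before the RefSeq gene start in GRCr8, printed 5′ to 3′ on the gene's strand, with matches to TGATGNAA on either strand in capitals. Slc43a2 is a higher member of the same class, and neither it nor Slc38a6 held a match.
Slc38a1 (chr7:129681402-129681651, minus strand): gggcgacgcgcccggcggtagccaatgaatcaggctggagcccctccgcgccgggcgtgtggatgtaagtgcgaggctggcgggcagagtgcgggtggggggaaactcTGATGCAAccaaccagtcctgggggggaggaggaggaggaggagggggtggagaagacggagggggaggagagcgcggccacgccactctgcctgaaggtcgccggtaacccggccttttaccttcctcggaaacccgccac
Slc1a4 (chr14:98761563-98761812, minus strand): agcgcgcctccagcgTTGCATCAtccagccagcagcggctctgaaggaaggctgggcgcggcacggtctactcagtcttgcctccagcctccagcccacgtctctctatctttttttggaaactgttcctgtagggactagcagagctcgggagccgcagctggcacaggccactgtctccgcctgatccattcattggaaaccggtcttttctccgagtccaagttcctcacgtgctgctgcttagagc
Slc7a1 (chr12:11664238-11664487, plus strand): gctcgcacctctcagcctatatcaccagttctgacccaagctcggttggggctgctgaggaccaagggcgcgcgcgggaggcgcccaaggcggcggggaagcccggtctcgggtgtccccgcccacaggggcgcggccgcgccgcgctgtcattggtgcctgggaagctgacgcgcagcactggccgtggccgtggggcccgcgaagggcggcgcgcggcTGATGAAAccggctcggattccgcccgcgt
Slc38a6 (chr6:97723276-97723525, plus strand): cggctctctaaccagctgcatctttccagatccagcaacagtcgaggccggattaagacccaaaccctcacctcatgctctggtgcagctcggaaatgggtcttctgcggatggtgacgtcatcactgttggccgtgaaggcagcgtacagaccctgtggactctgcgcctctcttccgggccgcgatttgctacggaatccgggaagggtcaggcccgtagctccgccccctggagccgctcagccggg
Slc43a2 (chr10:60874588-60874837, plus strand): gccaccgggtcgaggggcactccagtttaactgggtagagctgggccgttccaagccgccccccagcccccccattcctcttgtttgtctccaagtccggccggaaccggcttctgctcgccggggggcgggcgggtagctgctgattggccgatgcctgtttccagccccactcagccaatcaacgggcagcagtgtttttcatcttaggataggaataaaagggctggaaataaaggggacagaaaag

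A promoter was in the RefSeq table for 25 of the 30 members, and 3 of the 25 held the letters TGATGNAA, against 3.27% of 27457 rat promoters of the same length. The 3 were Slc38a1, with the match starting 142 bases before the gene start, Slc1a4 at 235 bases and Slc7a1 at 30 bases. They are all lower amino acid carriers, a class and direction with 4 members. None of the 4 higher amino acid carriers with a promoter and no member of another class held a match. At 3.27% of promoters few or no matches are due in so few windows, so their absence there makes no contrast. The motif was also chosen with the direction known, so a link between motif and direction was not tested. Other letters searched on both strands were CATCTG, an E-box of the kind bound by proneural factors such as Ngn3, and TAATTA, a homeodomain core. Neither occurred in any of the 25 windows, against 13.7% and 4.94% of all promoters, and no matches overlapped. A match to these letters is not a measured binding site. The GC content of the 25 windows ran from 35.2% to 81.2%, with a median of 60% against 52% for all promoters, and TAATTA holds only A and T.

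The 5 higher amino acid carriers include exchangers, facilitative carriers and carriers known from nervous tissue. Slc43a2, the facilitative carrier LAT4 of large neutral amino acids, had 355 and 923 reads, or 10.1 and 27.7 RPKM, and was 2.74-fold higher (2.42 to 3.10). Slc7a6, or y+LAT2, which exchanges cationic for neutral amino acids in a complex with the 4F2 heavy chain, had 168 and 558 reads and was 3.49-fold higher (2.94 to 4.18). Slc6a7, the high-affinity proline carrier described in brain, had 50 and 236 reads, or 2.35 and 11.7 RPKM (4.97-fold, 3.65 to 6.88). The remaining higher members were rare transcripts in untransfected cells. Slc1a7, the glutamate carrier EAAT5 known from retina, had 7 and 47 reads (7.06-fold, 3.17 to 18.5), and Slc7a4, a member of the CAT family with no settled substrate, had 9 and 38 reads (4.44-fold, 2.11 to 10.4). Both stayed under 3 RPKM in the transfected library. Summed over the class, levels were 111 RPKM before and 95.9 RPKM after transfection. With library totals the direction of this sum turned on 1 gene, since without Slc1a4 it was 67.8 and 80.2 RPKM. Under TMM and median-of-ratios scaling the class sum was lower (log2 ratios -0.99 and -1.42), and it stays lower there without Slc1a4.

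**Figure D2:**
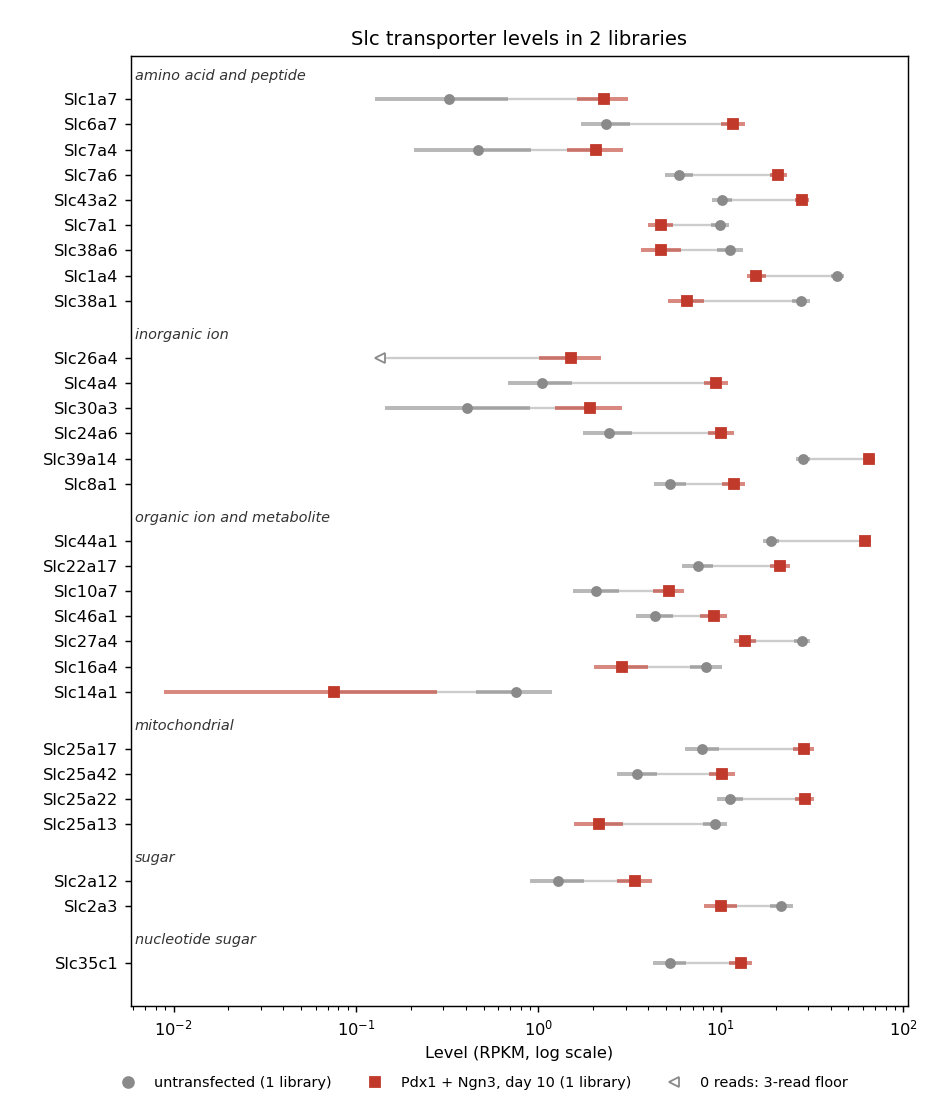
Levels of 29 of the 30 solute carriers in RPKM on a log axis, with grey circles for the untransfected and red squares for the transfected library and thick lines for exact 95% Poisson intervals. Slc1a4 was highest among untransfected levels at 43.4 RPKM and Slc39a14 and Slc44a1 among transfected levels at 65.1 and 61.9 RPKM; the open triangle marks the 3-read floor of Slc26a4, which had 0 untransfected reads.

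Inorganic ion carriers were higher in 6 of 6 listed cases, beside 63.5% of all listed genes, and their median log2 ratio was 2.15. Under TMM scaling 4 of the 6 were called higher, beside 31.6% of all listed genes, and all 6 were above 0. Under median-of-ratios scaling 2 were called, beside 22.02%, 5 were above 0, and Slc8a1 turned to a log2 ratio of -0.051. Slc39a14, or ZIP14, which imports zinc, iron and manganese, carried most of the level of this class. It had 1041 and 2279 reads, or 28.2 and 65.1 RPKM, and was 2.30-fold higher (2.14 to 2.48), but with a log2 ratio of 0.0021 under median-of-ratios scaling it stood at no change there. Slc30a3, or ZnT3, which fills synaptic vesicles with zinc, had 6 and 27 reads (4.73-fold, 1.91 to 14.02) and stayed at 1.91 RPKM after transfection.

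Bicarbonate and anion exchange were represented by a pair of genes with the largest folds among the higher members. Slc4a4, the sodium bicarbonate cotransporter NBCe1 of pancreatic ducts and kidney, had 29 and 250 reads, or 1.04 and 9.44 RPKM, and was 9.07-fold higher (6.16 to 13.8). Slc26a4, pendrin, an exchanger of chloride, iodide and bicarbonate, was the one member without reads in a library. Its count was 0 in untransfected cells (upper Poisson limit 0.166 RPKM) and 32 in transfected cells (1.51 RPKM). With the 0 set to 3 reads (0.138 RPKM) it was 11.2-fold higher, and the exact lower limit of the ratio was 8.61. Sodium and calcium exchange was also represented by 2 genes. Slc24a6, the mitochondrial exchanger NCLX whose current RefSeq symbol is Slc8b1, had 51 and 201 reads (4.15-fold higher, 3.04 to 5.75), and Slc8a1, the plasma membrane exchanger NCX1, had 136 and 287 reads (2.22-fold, 1.80 to 2.74). Over the class, levels summed to 37.4 and 99.7 RPKM, and to 9.15 and 34.6 RPKM without Slc39a14.

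Carriers of organic ions and metabolites had 5 higher and 3 lower members, a share of 62.5% higher against 63.5% in the table. Under TMM 1 and under median-of-ratios scaling 0 members were called higher, with 3 lower in both cases, so that the balance turned. The whole table turned too, with 31.6% of all listed genes higher under TMM and 22.02% under median-of-ratios, beside 36.5% lower in both. Slc44a1, a choline carrier that supplies phospholipid synthesis, had 659 and 2070 reads, or 18.7 and 61.9 RPKM, and was 3.30-fold higher (3.03 to 3.61), with log2 ratios of 0.95 under TMM and 0.52 under median-of-ratios scaling that passed no call. In transfected cells Slc39a14 was the one member above this level. Slc22a17, a receptor for lipocalin 2, had 139 and 372 reads (2.82-fold higher). Slc10a7, named for the bile acid cotransporter family, had 59 and 140 reads (2.50-fold higher). Slc46a1, the proton-coupled folate carrier, had 95 and 191 reads (2.12-fold higher) and turned to a log2 ratio of -0.12 under median-of-ratios scaling. It was the higher member nearest to the 2-fold limit of the table, as Slc27a4 was among the lower ones.

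The lower members of this class are named for the transport of fatty acids, monocarboxylic acids and urea. Slc27a4, the fatty acid transport protein FATP4, had 668 and 309 reads, or 27.9 and 13.6 RPKM, and was 2.05-fold lower (1.79 to 2.36). Slc16a4, or MCT5, had 128 and 42 reads (2.90-fold lower, 2.03 to 4.21). Slc14a1, the urea transporter of red cells and vasa recta, was the member with the fewest reads, 21 reads and then 2, and its 9.98-fold lower level has a wide interval of 2.44 to 87.8. Summed levels in the class were 78.1 and 147 RPKM, but median-of-ratios scaling turned this difference (log2 ratio -0.29).

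The Slc25 family, mitochondrial carriers apart from Slc25a17, had 3 higher and 1 lower member, beside 63.5% and 36.5% of all listed genes. Under TMM 1 and under median-of-ratios scaling 0 of the 3 were called higher, beside 31.6% and 22.02% of all listed genes. The lower one, Slc25a13 or citrin, exchanges aspartate for glutamate in the malate-aspartate shuttle and the urea cycle. Its reads numbered 240 in untransfected and 53 in transfected cells, or 9.28 and 2.16 RPKM, and it was 4.30-fold lower (3.19 to 5.91). Slc25a22, the mitochondrial glutamate carrier GC1, had 200 and 486 reads, or 11.2 and 28.7 RPKM, and was 2.56-fold higher (2.16 to 3.03). Slc25a42, the carrier of coenzyme A, had 77 and 213 reads (2.91-fold higher, 2.23 to 3.83). Slc25a17 belongs to the family by sequence but sits in the peroxisome, where it carries cofactors. It had 108 and 368 reads, or 7.91 and 28.4 RPKM (3.58-fold higher, 2.89 to 4.48). Citrin and the other 3 thus parted within 1 family, and citrin went from a level between theirs to the lowest of the 4. The family's summed level was 31.9 and 69.4 RPKM, but median-of-ratios scaling turned this difference (log2 ratio -0.081).

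The glucose carriers Slc2a3 and Slc2a12 went opposite ways. Slc2a3, or GLUT3, a high-affinity glucose carrier of neurons, had 280 and 124 reads, or 21.5 and 10.00 RPKM, and was 2.15-fold lower (1.73 to 2.67). Slc2a12, or GLUT12, had 41 and 103 reads, or 1.28 and 3.37 RPKM, and was 2.64-fold higher (1.82 to 3.89). The carriers left out by the rule were both lower, Slc2a1 (GLUT1) at 82.3 and 26.7 RPKM and Slc16a3, the lactate carrier MCT4, at 52.1 and 14.5 RPKM. Both had higher untransfected levels than any member. Slc35c1, which brings GDP-fucose into the Golgi for glycan synthesis, had 124 and 288 reads and was 2.44-fold higher (1.97 to 3.04). Neither Slc2a12 nor Slc35c1 was called higher under TMM or median-of-ratios scaling.

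**Figure D3:**
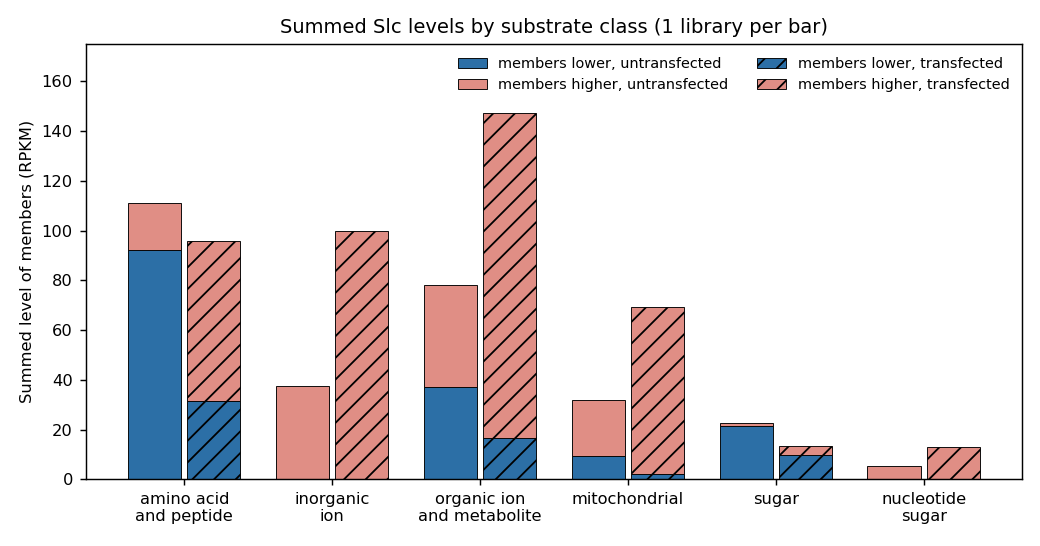
Summed level in RPKM of the members of each substrate class, with plain bars for the untransfected and hatched bars for the transfected library, split into members lower (blue) and higher (pink) after transfection. In the amino acid class the blue part went from 92.0 to 31.5 RPKM and the pink part from 19.2 to 64.3 RPKM, and the inorganic ion class has no blue part.

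Related carriers could be compared without any scaling of the libraries, as the ratio of their ratios. The 30 members came from 21 families, of which 6 held more than 1 member, and in 5 of these 6 members went opposite ways. With 63.5% of all listed genes higher and 36.5% lower, families of 2 to 4 listed members often hold both directions. The count is therefore not read as a trait of Slc families, and it was not tested. Since every listed gene differed by at least 2-fold, a pair of opposite members is at least 4-fold apart by selection, and these values describe the pairs. In the Slc7 family Slc7a1 was above Slc7a6 in untransfected cells, at 1.68 times its level, and below it in transfected cells, where Slc7a6 was 4.41 times as high (ratio of ratios 7.40, exact interval 5.82 to 9.41).

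Citrin stood apart from each of the other 3 Slc25 members, with ratios of ratios of 15.4 against Slc25a17 (10.5 to 22.7), 12.5 against Slc25a42 (8.28 to 18.99) and 11.004 against Slc25a22 (7.75 to 15.7). In the Slc1 and Slc2 families, and for Slc7a1 and Slc7a4, the order of the pair did not turn. Slc1a4 remained above Slc1a7, which was at 2.28 RPKM after transfection, with a ratio of ratios of 19.6 (8.70 to 51.6) resting on 7 untransfected reads of Slc1a7. Slc2a3 remained above Slc2a12 (5.67, 3.66 to 8.85), and Slc7a1 above Slc7a4 (9.41, 4.36 to 22.4). The Slc38 family was the one with 2 members on the same side, both lower.

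The order of levels differed between the libraries. The 6 highest members in untransfected cells were Slc1a4, Slc39a14, Slc27a4, Slc38a1, Slc2a3 and Slc44a1, which held 58.4% of the members' summed RPKM. Slc39a14, Slc27a4 and Slc38a1, between 27.5 and 28.2 RPKM, were neighbours with overlapping counting intervals, as were Slc2a3 and Slc44a1. The 6 highest in transfected cells, among them Slc39a14, Slc44a1, Slc25a22, Slc25a17 and Slc43a2, held 55.9% of the summed RPKM. Among genes selected for change, a high level in 1 library favours 1 direction, so directions are not read from these ranks. Slc39a14 and Slc44a1 had overlapping intervals, as did each neighbour from Slc25a22 to Slc43a2, between 28.7 and 27.7 RPKM. Only Slc39a14 and Slc44a1 belonged to both groups of 6. Over all 30 members, summed levels were 287 RPKM and then 439 RPKM, a direction that turned under TMM (log2 ratio -0.16) and median-of-ratios scaling (-0.59).

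Other genes of membrane transport, from a list of channels, pumps and ABC transporters given by symbol, had 35 listed members, 23 higher and 12 lower, or 65.7% higher beside 63.5% of the table. Under TMM 12 of the 35 were called higher and under median-of-ratios scaling 10, with 12 lower in both cases. Of all listed genes 31.6% and 22.02% were then higher, and 36.5% lower in both cases. ABC transporters, which use ATP to export lipids and other substrates, were higher in 5 of 5 cases, of which 3 were called under TMM and median-of-ratios scaling. Abca1, the cholesterol exporter, had 93 and 629 reads (7.12-fold, 5.72 to 8.94) and Abcg1 had 9 and 113 reads (13.2-fold). Abca4 (14.03-fold), Abca9 (3.11-fold) and Abcc1 (2.18-fold) were the others, and Abcc1 turned under median-of-ratios scaling. Subunits of the vacuolar proton pump, which acidifies lysosomes and secretory vesicles, were higher in 4 of 4 cases within a narrow range, from 2.12-fold for Atp6v1a to 2.47-fold for Atp6v1b2, but 0 of the 4 were called higher under TMM or median-of-ratios scaling. Atp6v0c was the most abundant of them at 151 and 327 RPKM, and it and Atp6v1a turned under median-of-ratios scaling. Atp6v0a1 was 2.45-fold higher, with a log2 ratio of 0.092 under that scaling.

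**Figure D4:**
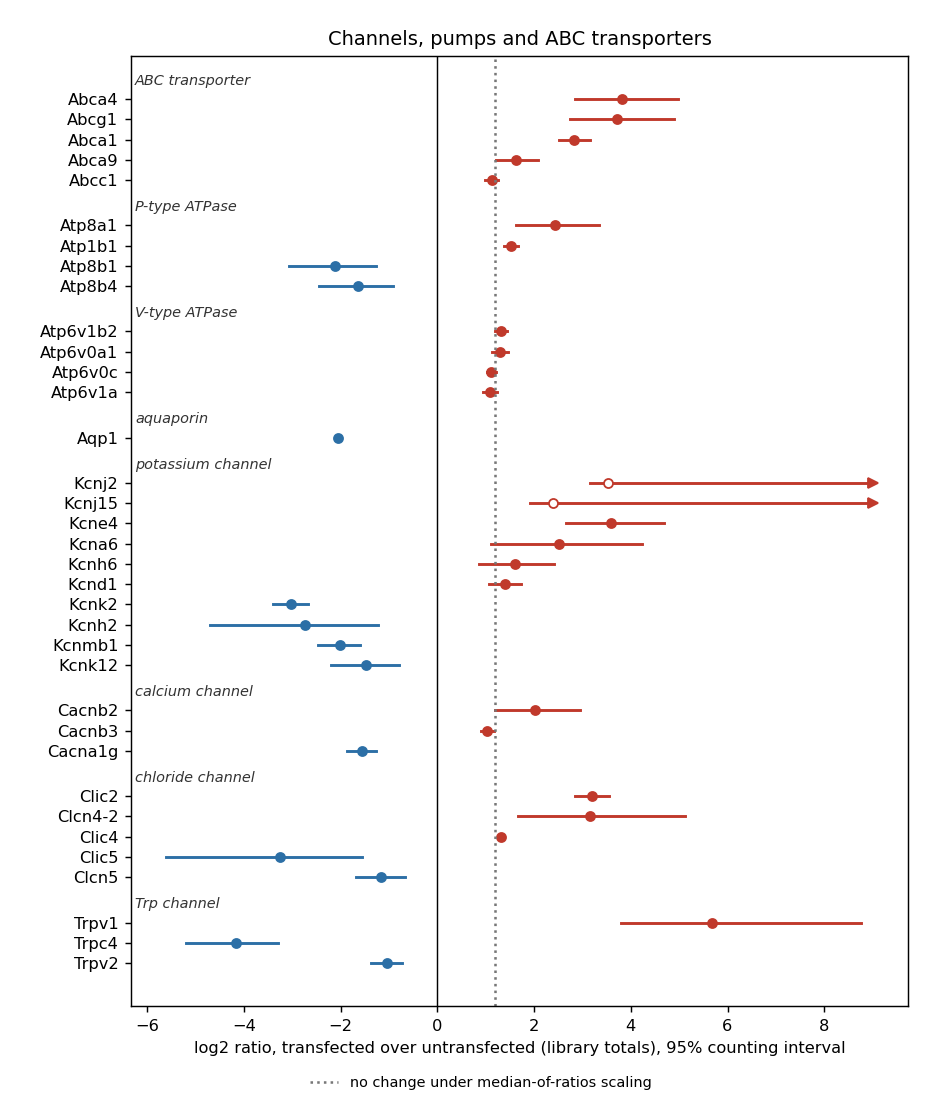
Log2 ratio, transfected over untransfected, of the 35 listed channels, pumps and ABC transporters by type, with exact 95% counting intervals, higher genes in red and lower genes in blue. Open points with arrows had 0 untransfected reads, set to 3 in the ratio, and have no upper limit. The 5 ABC transporters and 4 vacuolar pump subunits lie above 0 with library totals, and the potassium channels lie on both sides, 6 higher and 4 lower.

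P-type ATPases divided evenly, 2 higher and 2 lower, beside 63.5% and 36.5% of all listed genes. Atp1b1, the beta subunit of the sodium pump that drives sodium-coupled carriers, was 2.86-fold higher (29.3 and 83.8 RPKM), and the phospholipid flippase Atp8a1 5.40-fold higher, while its relatives Atp8b1 and Atp8b4 were 4.35-fold and 3.14-fold lower. Aqp1, the water channel, had the highest untransfected level in this list and was 4.14-fold lower (525 and 127 RPKM, interval 3.96 to 4.33). Among 10 potassium channel genes, 6 were higher and 4 lower, beside 63.5% and 36.5% of all listed genes. Kcnj2, an inward rectifier that sets the resting potential, was without reads before and had 33 after transfection. With the 0 set to 3 reads it was 11.6-fold higher, with an exact lower limit of 8.89. Kcnj15 went from none to 15 reads (5.26-fold higher with the 0 set to 3 reads, lower limit 3.77). Kcne4, Kcna6, Kcnh6 and Kcnd1 were from 2.64-fold to 11.99-fold higher, and Kcna6 rested on 5 and 27 reads. The lower ones were Kcnk2, the mechanosensitive channel TREK1 (8.16-fold, 635 and 74 reads), Kcnh2 (6.65-fold, 28 and 4 reads, 2.33 to 26.1), Kcnmb1, a subunit of the smooth muscle BK channel (4.06-fold), and Kcnk12 (2.78-fold).

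Genes of Trp channels and calcium channel subunits went both ways. Trpv1, the capsaicin receptor, had 2 and 98 reads (51.5-fold higher, 13.9 to 432), whereas Trpc4 had 208 and 11 reads (17.97-fold lower, 9.84 to 36.6) and Trpv2 was 2.07-fold lower. The calcium channel beta subunits Cacnb2 and Cacnb3 were 4.07-fold and 2.04-fold higher, the latter turning under median-of-ratios scaling. Cacna1g, the alpha subunit of a T-type calcium channel, was 2.96-fold lower. Of the chloride channel genes Clic2 (9.11-fold, 73 and 632 reads), Clcn4-2 (8.94-fold, 4 and 34 reads, 3.19 to 34.7) and Clic4 (2.50-fold) were higher. Clic5 (9.51-fold, 30 and 3 reads, 2.96 to 48.7) and Clcn5 (2.24-fold) were lower. From 17 partner and regulator proteins 2 were listed. These were Hfe, a regulator of iron uptake, with 11 and 37 reads (3.54-fold higher), and Stc2, a stanniocalcin, with 109 and 40 reads (2.59-fold lower).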

How the data were processed

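Total RNA was sequenced from 1 untransfected and 1 transfected library, after oligo(dT) selection and random priming, per the labels' protocols. The submitters' processing notes name genome build rn4. For the aligner, the counter and the handling of shared reads the entry reads "not given in the sources used here", and no strand-marking step is named in the protocols. The deposited table holds the authors' whole-number read counts, their RPKM (0.001 written for 0 reads) and gene length, per the file headers. The log2 ratio of RPKM in the authors' deposited table is at least 1.00 in size in every row, and the deposited p-values, with a false discovery rate up to 0.000996, compare 2 libraries and support nothing here.

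Library totals were those implied by count, length and RPKM, which gave 7800831 in 2215 of 2216 rows with untransfected reads and 7415094 in 2316 of 2316 rows with transfected reads (within 1 read). Ratios have Clopper-Pearson and levels Poisson intervals (95%), and 0 reads were set to 3 in a ratio. PCR reads are not independent molecules. Python 3.11.15 and scipy 1.17.1 were used, with edgeR 4.0.16 (TMM) and DESeq2 1.42.0 (median-of-ratios) for scaling factors only, computed on listed genes selected for change. Interval coverage was tested on simulated Poisson counts. These hold counting error alone and no spread among cultures, rats or PCR copies, so the test cannot speak to that spread. Promoters are from RefSeq, GRCr8, for 25 members; all 30 identifiers matched RefSeq, 1 under another symbol. Members, substrate words, families and the transport list were chosen with earlier results of these data known. The naming rule took the 6 higher and 6 lower members with the largest interval bound, the 6 of highest mean RPKM, small classes, the 3 higher and 3 lower of highest mean RPKM among amino acid and ion carriers, members at 0 reads and opposite family members; the few others are named to account for the members, except 1 that stays in the counts and sums but is not reported here, and all listed transport genes are named. Alternatives were other scalings, log2(RPKM + 1), a minimum of 30 reads, stricter call rules, inclusion of the 2 left-out genes and grouping by family alone.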

Additional observations from a re-analysis of the deposited data

How the results depend on the processing

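Of the 30 member ratios, 19 kept their direction and call under TMM scaling and 13 under median-of-ratios scaling, 27 with sums of listed reads, 25 with log2(RPKM + 1), 14 at a 3-fold limit and 20 with the interval bound at 2-fold. The counts for TMM and median-of-ratios include the 9 lower members, which could not lose their call there. The count of higher members was 10 under TMM and 4 under median-of-ratios scaling, 11 at 3-fold, and the count of lower members was 3 at 3-fold and 5 with the bound rule. The members' median log2 ratio was 0.60 under TMM and 0.18 under median-of-ratios scaling, against 1.38. Under median-of-ratios scaling the log2 ratios that reversed were those of Slc8a1 (-0.051), Slc46a1 (-0.12), Abcc1 (-0.080), Atp6v0c (-0.087), Atp6v1a (-0.11), Cacnb3 (-0.17) and the organic class median (-0.0013). Summed RPKM reversed there for all members (-0.59), the mitochondrial (-0.081) and organic (-0.29) classes, and under TMM for all members (-0.16). The sugar median, over 2 opposite genes (0.15), was -0.63 under TMM, -1.05 under median-of-ratios, -0.044 with log2(RPKM + 1) and -1.10 with Slc2a1 and Slc16a3 included. A shift of scaling moves all ratios alike, by construction. Grouping by family alone changed no class. Scaling of the other transport genes and of sums was added after the data were seen. Slc14a1 was the 1 member under 30 reads. No paired analysis was possible because each condition has 1 library.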

Other observations

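A pair of listed rows describe solute carriers but are no members by symbol. Dirc2, whose current RefSeq symbol is Slc49a4, had 150 and 301 reads and was 2.11-fold higher in transfected cells (interval 1.73 to 2.59). A row without a gene symbol, described as the acetyl-CoA carrier Slc33a1, had 73 and 140 reads (2.02-fold higher, 1.51 to 2.72).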
